A study of Homo sapiens with 36 samples.

Results

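Transcripts of 10 genes that modify, glycosylate or fold procollagen in the endoplasmic reticulum (ER) were compared between pseudopods and cell bodies of 6 human cancer cell lines. The genes were chosen by name for these functions, with earlier results of these data known, and every annotated probe set was examined. They were SERPINH1, P4HA1, P4HA2, P4HA3, PLOD1, PLOD2, PLOD3, P3H1, CRTAP and COLGALT1. They make up 10 of the 19775 genes with a symbol on the array, and 20 of its 54593 probe sets. All 10 genes and 17 of the 20 probe sets passed the filter on low values.

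Collagen chains enter the ER during synthesis and are hydroxylated there on prolines and lysines before the triple helix closes. Prolyl 4-hydroxylation stabilises the helix, lysyl hydroxylation prepares sites for sugars and for later cross-links, and SERPINH1 (HSP47) binds the folded helix until it leaves the ER. The hydroxylases are 2-oxoglutarate oxygenases that need iron and oxygen, and P4HA1, P4HA2, PLOD1 and PLOD2 are known as targets of the hypoxia-inducible factor HIF.

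Affymetrix HG-U133 Plus 2.0 arrays were hybridised with RNA from both fractions of each line, 3 arrays for each of 12 groups. After 24 hours on porous filters, material above the filter (cell body fraction) and material that had passed to the lower side (pseudopod fraction) were collected by scraping. The lines came from glioblastoma (U87, U251), fibrosarcoma (HT1080), prostate carcinoma (DU145) and breast carcinoma (MDA231), and MDA435 was once listed as a breast cancer line, though its origin has been disputed because it expresses melanocytic genes. No line carried a transgene or received a drug per the labels. Cultures of the glioblastoma and fibrosarcoma lines were kept in DMEM and those of the other lines in RPMI-1640, each with serum, so line and medium cannot be told apart. Each group is 1 established line, and nothing in the labels says that the 3 arrays came from separate cultures, so p-values measure the spread between these samples, which may be technical. The labels give 100 ng of RNA for each array, and mean intensity after trimming was 149.1 to 149.6 in all 36 arrays. A lower signal is therefore a smaller share of that fraction's RNA, and the arrays do not give RNA per cell.

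Several arrays stood apart. In U87 pseudopod replicate 3, the 651 other genes that were at least 2-fold lower in pseudopods had a median log2 distance of -0.73 from the U87 cell body mean, while replicates 1 and 2 had -1.64 and -2.20. CDH1 (E-cadherin), an epithelial marker, was high on 2 MDA231 arrays, at 1299 (pseudopod replicate 3) and 1778 (cell body replicate 2), with 4 arrays of that line between 2.2 and 13.7. The reverse held for MDA435, in which 4 arrays lay between 921.5 and 2463 while pseudopod replicate 3 was at 33.2 and cell body replicate 1 at 32.8. EPCAM, a surface antigen of epithelia, split the same arrays. GFAP, the defining marker of astrocytes, read 115.4 to 229.7 in U251 but only 2.4 to 13.2 in U87. Array medians lay between 18.2 and 30.6 intensity units, and only 3 arrays per group limit the precision.

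The sequences upstream of the members were searched for elements known from hypoxia, heat shock and ER stress. RefSeq promoters (GRCh38.p14) were found for 9 of the 10 genes (all but P4HA3), with 10 start sites between them. Counts of members are by gene, with a match at any start site, and the background shares are by window. The 250 bases before each start site were searched on both strands for the HIF core ACGTG, the CCAAT box CCAAT and the heat shock core GAANNTTC. None of these motifs contains another, while the ER stress response element, also searched for, contains the CCAAT box. ACGTG occurred before SERPINH1 (its other listed start site), P4HA1 and PLOD2, 3 of 9 genes, and in 18.5% of 35116 promoter windows of the same length. CCAAT occurred before SERPINH1 (again the other start site), P4HA2 and PLOD2, and in 32.0% of windows. GAANNTTC occurred before SERPINH1 alone among the members and in 5.78% of windows. The ER stress response element occurred before 0 of 9 genes and in 0.074% of windows, so rare that finding none says little. The sequences below are those of the collagen chaperone, with its heat shock core, and of a prolyl and a lysyl hydroxylase with HIF cores. They run 5′ to 3′ on the gene's strand, and capitals mark the motifs in either orientation. A match is a description of letters, not evidence of binding.
SERPINH1 (chr11:75562003-75562252, plus strand): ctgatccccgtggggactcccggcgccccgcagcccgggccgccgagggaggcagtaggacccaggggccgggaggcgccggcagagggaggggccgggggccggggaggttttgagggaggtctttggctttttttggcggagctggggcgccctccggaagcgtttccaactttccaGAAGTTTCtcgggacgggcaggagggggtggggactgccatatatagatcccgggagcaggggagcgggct
P4HA1 (chr10:73096867-73097116, minus strand): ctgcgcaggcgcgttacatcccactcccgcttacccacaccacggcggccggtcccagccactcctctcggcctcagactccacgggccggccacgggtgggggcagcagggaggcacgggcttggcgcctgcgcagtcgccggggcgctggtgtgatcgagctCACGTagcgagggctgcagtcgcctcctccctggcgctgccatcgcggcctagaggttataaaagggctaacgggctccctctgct
PLOD2 (chr3:146161185-146161434, minus strand): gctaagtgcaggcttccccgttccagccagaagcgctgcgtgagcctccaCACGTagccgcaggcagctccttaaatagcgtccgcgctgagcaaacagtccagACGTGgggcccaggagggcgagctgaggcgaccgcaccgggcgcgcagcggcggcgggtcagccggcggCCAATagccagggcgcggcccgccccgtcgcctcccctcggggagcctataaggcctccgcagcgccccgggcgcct

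Averaged over the 6 lines, 9 of the 10 genes were lower in pseudopods and none was higher, where 20.8% of 15294 genes tested were lower and 29.7% higher. Since the members were chosen with earlier results of these data known, these shares are a description with no test. Of these 9, 7 were at least 2-fold lower, as were 4.3% of all genes. The falls ran from 1.51-fold for CRTAP to 3.57-fold for SERPINH1. The median of the 10 log2 changes was -1.28, against 0.05 over all genes tested. Of the members, 6 (SERPINH1, P4HA2, PLOD1, P3H1, P4HA1 and PLOD3) lay among the 266 lowest changes of all, and SERPINH1 held rank 3. Calls are at a Benjamini-Hochberg adjusted p under 0.05 in limma, and folds and log2 changes are on the log2(intensity + 16) scale, which understates changes of dim genes. With the 6 line differences as units in place of arrays, the same 9 genes were lower (19.5% of all genes lower).

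SERPINH1, the collagen-specific chaperone, showed the deepest fall. In U87 its intensity was 339.2, 161.1 and 589 in the 3 pseudopod arrays and 1517, 1423 and 1616 in the 3 cell body arrays. In HT1080 the pseudopod values were 363.6, 262.7 and 257 and the cell body values 1533, 1989 and 1286. In MDA435 they were 272.2, 243.1 and 339.5 in pseudopods and 1676, 884.1 and 971.1 in cell bodies. The fractions did not overlap in any of these lines, and the U87 pseudopod array nearest the cell bodies was replicate 3. U251 gave 275.7, 257.2 and 287.5 in pseudopods against 938.8, 842 and 967.3 in cell bodies. DU145 gave 323.6, 291.4 and 360.1 against 882.9, 885 and 994.2. MDA231 gave 282, 223.7 and 224.1 against 1010, 438.3 and 598.7, its lowest cell body value being the array of high CDH1. Here too no pseudopod array reached a cell body array. The averaged change was -1.83 ± 0.12 (SE, limma, adjusted p = 1.24e-12), and SERPINH1 was called lower in each of the 6 lines, as were 1.05% of all genes. The line changes ran from -1.35 in MDA231 to -2.38 in HT1080. Without MDA231 cell body replicate 1 the call in that line was lost (-1.04, limma, adjusted p = 0.0660).

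Mean levels of SERPINH1 spanned a narrower range in pseudopods than in cell bodies. Mean intensity in pseudopods ran from 243.3 ± 33.5 in MDA231 to 363.1 ± 215 in U87 (SD, n = 3 each), and in cell bodies from 682.4 ± 295 in MDA231 to 1603 ± 357 in HT1080. Of the 15 pairs of lines, 6 differed in cell bodies and 0 in pseudopods by limma (smallest adjusted p for pseudopods = 0.309), where over all genes 40.4% of cell body pairs and 39.3% of pseudopod pairs were called. Without U87 pseudopod replicate 2, the lowest array, 2 pseudopod pairs were called. No pseudopod pair reached an unadjusted p under 0.05 either (0 of 15). The cell body count was near the share over all genes. Pseudopods that were level over cell bodies that were not would mean a fall that differs between lines. For SERPINH1 the F test of such a difference did not pass (limma, adjusted p = 0.702). The narrower pseudopod range is therefore given as a description.

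**Figure D1:**
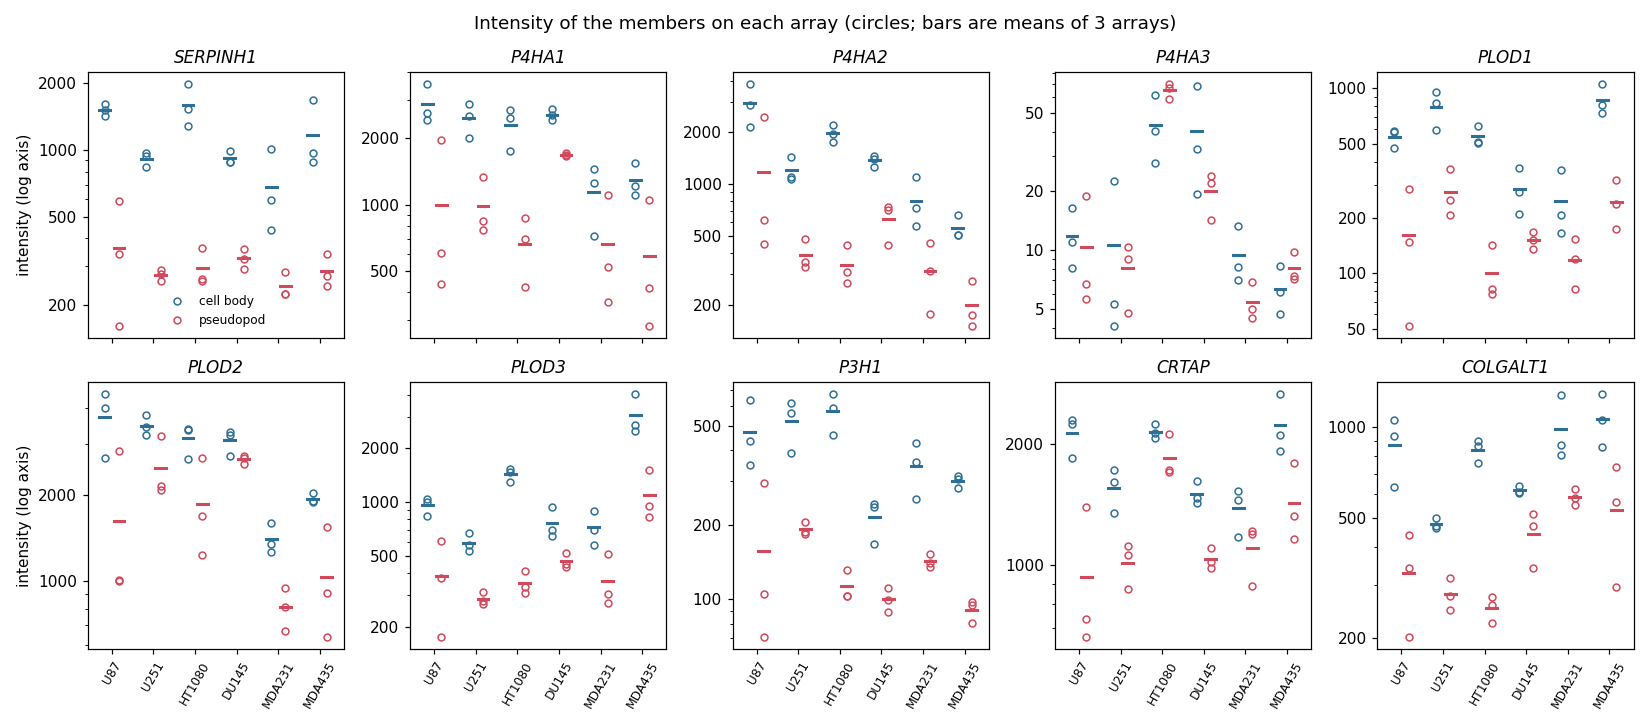
Intensity (log axis, arbitrary units) of each member on every array, by line, with cell body arrays in blue, pseudopod arrays in red and bars at the arithmetic mean of 3 arrays. SERPINH1 pseudopod arrays lie between 161.1 and 589 and its cell body arrays between 438.3 and 1989, while P4HA3 never passes 70.1.

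The catalytic subunits of prolyl 4-hydroxylase, which form enzymes with the subunit P4HB, split by gene. P4HA1 and P4HA2 were lower in pseudopods, and P4HA3 was not called in any line (smallest unadjusted p in limma 0.0321, in DU145). With limma's array weights P4HA3 was called higher in HT1080 (0.54, adjusted p = 0.0322), the only higher call of a member in a line under the settings tried. P4HA2 in HT1080 read 442.1, 310.9 and 267.8 in pseudopods and 1763, 2203 and 1957 in cell bodies, the largest change of any member in any line (-2.51). In MDA435, where its cell body level was lowest, it read 274.7, 174.9 and 150.2 against 505.1, 507.7 and 665.5. In U87 it read 616.4, 450.4 and 2447 in pseudopods and 3823, 2155 and 2885 in cell bodies, so pseudopod replicate 3 overlapped the cell bodies. That line was the exception, since P4HA2 fractions were apart in 5 of 6 lines. The averaged change of P4HA2 was -1.62 ± 0.16 (SE, limma, adjusted p = 1.13e-09), and it was called lower in every line but DU145 (-1.14, 95% interval -1.94 to -0.34, adjusted p = 0.104).

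P4HA1 changed by -1.29 ± 0.18 on average (SE, limma, adjusted p = 4.31e-07) and was called lower in 4 lines. In HT1080 it read 866.8, 699.8 and 421.5 in pseudopods and 1758, 2679 and 2473 in cell bodies. In DU145 the fractions were close but apart, with 1680, 1710 and 1660 in pseudopods and 2548, 2717 and 2424 in cell bodies. In MDA231 the pseudopod values of 521.7, 360.8 and 1109 overlapped the cell body values of 1257, 1458 and 723.4, and the 1109 came from the array of high CDH1. The changes in DU145 (-0.60, 95% interval -1.49 to 0.29) and MDA231 (-0.87, 95% interval -1.76 to 0.02) did not pass the test (limma, adjusted p = 0.507 and 0.241).

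P4HA3 was dim throughout, between 4.1 and 70.1 intensity units. It was brightest in HT1080, where it read 70.1, 58.8 and 66.7 in pseudopods and 61.4, 40.6 and 27.9 in cell bodies, and in DU145, with 22, 23.7 and 14.3 against 32.6, 19.3 and 68.8. The other 4 lines lay between 4.1 and 22.4. The fractions overlapped in HT1080 and DU145. The averaged change was -0.06 ± 0.10 (95% interval -0.27 to 0.14, limma, adjusted p = 0.629), and its sign turned with arrays scaled to equal medians (0.033) and with quantile normalization (0.012).

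The 3 lysyl hydroxylases were all lower on average, by amounts that for PLOD2 depended on the probe set. PLOD1, which hydroxylates helical lysines, changed by -1.54 ± 0.14, PLOD3, which also carries glycosyltransferase activity, by -1.26 ± 0.12, and PLOD2, which hydroxylates the telopeptides that enter cross-links, by -0.78 ± 0.12 (SE, limma, adjusted p = 4.65e-10, 3.43e-10 and 5.59e-06). PLOD1 and PLOD3 were apart in all 6 lines. PLOD2 was apart in 3 of 6 by its brighter probe set, used here. Its dimmer probe set changed by -1.56 on average. Differences between the genes were not tested.

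For PLOD1, HT1080 gave 141.9, 82.4 and 77 in pseudopods and 508.9, 628.2 and 514.4 in cell bodies. MDA435, with the highest cell body level, gave 236.1, 174.5 and 319.2 against 1057, 735.9 and 808.4. MDA231 gave 119.1, 82.8 and 152.6 against 363.1, 206.7 and 164.8, and the gap between its nearest arrays was narrow. PLOD1 was called lower in U87, U251, HT1080 and MDA435, and neither in DU145 (-0.82, adjusted p = 0.208) nor in MDA231 (-0.92, adjusted p = 0.118, limma).

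For PLOD3, MDA435 stood above all other lines in cell bodies, at 4003, 2702 and 2491, and its pseudopods read 947.1, 823.7 and 1513. U87 pseudopods read 377.8, 176.5 and 604.6 and its cell bodies 999.5, 1046 and 830.1, again with pseudopod replicate 3 nearest. Only DU145, with 521.6, 451.8 and 432.7 against 701.2, 642.2 and 943.6, was without a call (-0.67, 95% interval -1.25 to -0.08, limma, adjusted p = 0.202). PLOD3 was called lower in the other 5 lines.

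PLOD2 had cell body means from 1401 ± 173 in MDA231 to 3721 ± 923 in U87 (SD, n = 3 each). U87 pseudopods read 999.8, 1008 and 2847 against 4473, 2691 and 3999, and HT1080 pseudopods 2675, 1681 and 1228 against 2662, 3396 and 3371. In both lines the highest pseudopod array lay above the lowest cell body array. DU145 read 2735, 2554 and 2676 against 3238, 3305 and 2733, also with an overlap and with the smallest change (-0.21, 95% interval -0.85 to 0.42, limma, adjusted p = 0.792). PLOD2 was called lower in U87 (-1.34), MDA435 (-0.995) and, narrowly, HT1080 (-0.82, limma, adjusted p = 0.0499). The HT1080 call was lost in 27 of 36 fits without 1 array and in 5 of 11 other settings (adjusted p from 0.0509 to 0.266). The MDA435 call was lost in 5 of the 36 fits, each without an array of that line (change -0.71 without pseudopod replicate 2), and without its arrays of high CDH1. These calls are those of the brighter probe set. The dimmer was called lower in U87, MDA435, U251 (-1.35, limma, adjusted p = 0.0208) and HT1080 (-2.49, adjusted p = 2.78e-05). It was not called in DU145 or MDA231.

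P3H1 and CRTAP, the enzyme and the helper of the prolyl 3-hydroxylation complex, differed in how far they fell. P3H1 changed by -1.49 ± 0.11 (SE, limma, adjusted p = 1.55e-11) and CRTAP by -0.60 ± 0.08 (adjusted p = 4.59e-07), which was the smallest change among the 9 genes called. P3H1 was apart in 6 of 6 lines and called in 5. The exception was DU145, with 89.4, 99.8 and 111.7 in pseudopods against 235.7, 168 and 241.5 in cell bodies (-0.98, limma, adjusted p = 0.0517). That value lay near the threshold, and P3H1 was called lower in DU145 too under 6 of 11 other settings and in 5 of 36 fits without 1 array. HT1080 gave 131.7, 103.6 and 103.5 against 589, 670.3 and 461.2, the deepest fall of P3H1 (-2.18).

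CRTAP, by its brightest probe set, ordered the lines another way. Its largest fall was in U87, from 2248, 2300 and 1848 in cell bodies to 736.8, 664.8 and 1396 in pseudopods (-1.25 ± 0.20). Its smallest was in HT1080, with 2115, 1726 and 1702 in pseudopods against 2129, 2247 and 2068 in cell bodies (-0.22 ± 0.20, SE, limma, adjusted p = 0.478). HT1080 fractions of this probe set overlapped, while 7 other members had their largest fall there. The other CRTAP probe sets did not all give this order. Their smallest falls were in MDA231 (-0.25 and -0.38), in DU145 (-0.08) and in HT1080 (-0.07). The difference between lines did not pass the test for CRTAP (limma F test, adjusted p = 0.342). CRTAP was called in U87, U251 (-0.61) and MDA435 (-0.65), and in MDA231 the change was -0.33 (limma, adjusted p = 0.352).

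COLGALT1, which adds galactose to hydroxylysine, was lower on average by 2.02-fold (-1.01 ± 0.10, SE, limma, adjusted p = 2.21e-09), and its fractions were apart in 6 of 6 lines. HT1080 pseudopods read 275, 224.6 and 258.4 against 864.2, 901.6 and 759 in cell bodies (-1.68). U251 read 275.6, 316.6 and 247.5 against 471, 499.1 and 463.5 (-0.74), a small fall with little spread. The falls in DU145 (-0.48, 95% interval -1.002 to 0.03) and MDA231 (-0.71, 95% interval -1.22 to -0.19) did not pass the test (limma, adjusted p = 0.309 and 0.0906).

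By line, the members were lowest against cell bodies in HT1080 (median -1.90) and U87 (median -1.55). Of the 10 genes, 9 were called lower in U87 (11.8% of all genes), 8 in U251 (9.34%), 8 in HT1080 (12.1%) and 9 in MDA435 (8.8%). In MDA231 4 were called (SERPINH1, P4HA2, PLOD3 and P3H1; 4.88% of all genes) and in DU145 SERPINH1 alone (2.2%). None was called higher in any line, also at an unadjusted p under 0.05 (0 of 10 in each), where 11.8%, 5.4%, 12.9%, 2.96%, 1.18% and 0.824% of all genes were higher in U87, U251, HT1080, MDA435, MDA231 and DU145. Of these 39 calls, 25 were kept in every fit without 1 array. They were 9 in U87, 4 in U251, 7 in HT1080, 4 in MDA435, 1 in DU145 and 0 in MDA231, where each of the 4 calls was lost without cell body replicate 1. All pseudopod arrays lay below all cell body arrays for 7 members in U87 (14.4% of all genes), 9 in U251 (16.9%), 7 in HT1080 (18.4%), 8 in DU145 (15%), 8 in MDA231 (11.9%) and 9 in MDA435 (12.4%).

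**Figure D2:**
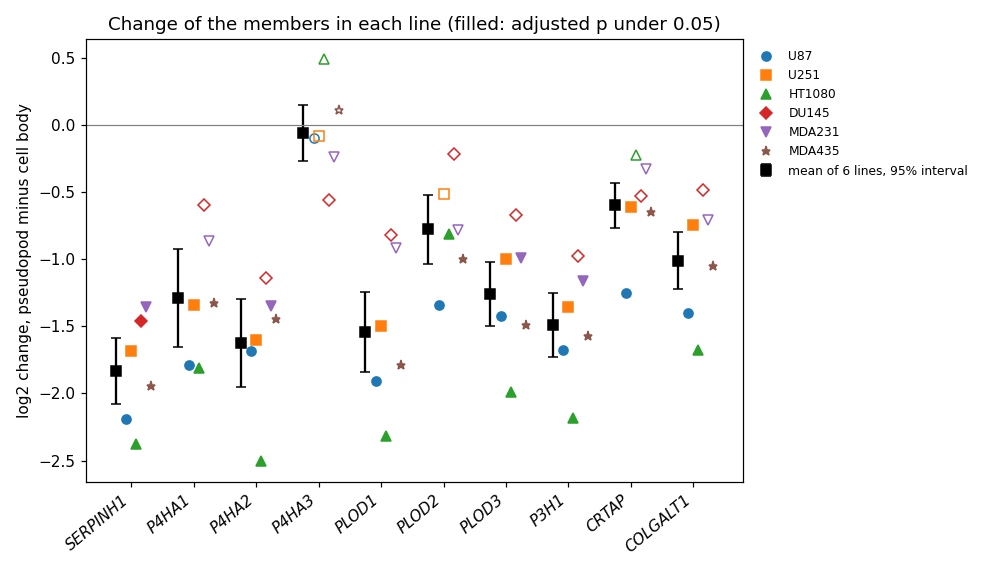
Log2 change, pseudopod minus cell body, of each member in each line (symbols, filled where the adjusted p is under 0.05) and averaged over 6 lines (black, bars are 95% intervals). SERPINH1 is filled in all 6 lines, from -1.35 to -2.38, and P4HA3 in none.

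DU145 had the smallest fall for 7 of the 9 genes that fell on average, and HT1080 the largest for 7. The difference between lines itself did not pass the test for any member (limma F test of 5 differences, smallest adjusted p = 0.331, for COLGALT1), where 1.04% of all genes passed. At an unadjusted p under 0.05, 4 differed (PLOD1, PLOD3, CRTAP and COLGALT1). This count depended on the weight given to the arrays. Without U87 pseudopod replicate 3 it was 2 (P3H1, adjusted p = 0.0178, and CRTAP, adjusted p = 0.00728), and with limma's array weights it was 9, all but P4HA3. With those weights 7 members were called lower in DU145 and 8 in MDA231.

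The arrays that stood apart moved members too. Without U87 pseudopod replicate 3 the U87 change of SERPINH1 was -2.61, of P4HA1 -2.42 and of CRTAP -1.58, and 9 members stayed called there. In the same fit 4 members were called in DU145 and 5 in MDA231. Without both MDA231 arrays of high CDH1, 4 members were called in MDA231, with changes of -1.57 for SERPINH1 and -1.69 for P4HA2. Without the 4 MDA435 arrays of high CDH1, 1 array against 1 was left, and SERPINH1 alone was called (-2.25, limma, adjusted p = 0.0461, the lone arrays being assumed to vary like the other groups). Leaving out MDA231 and MDA435, or these and U87, left 9 members lower on average, with SERPINH1 at -1.93 and -1.84.

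**Figure D3:**
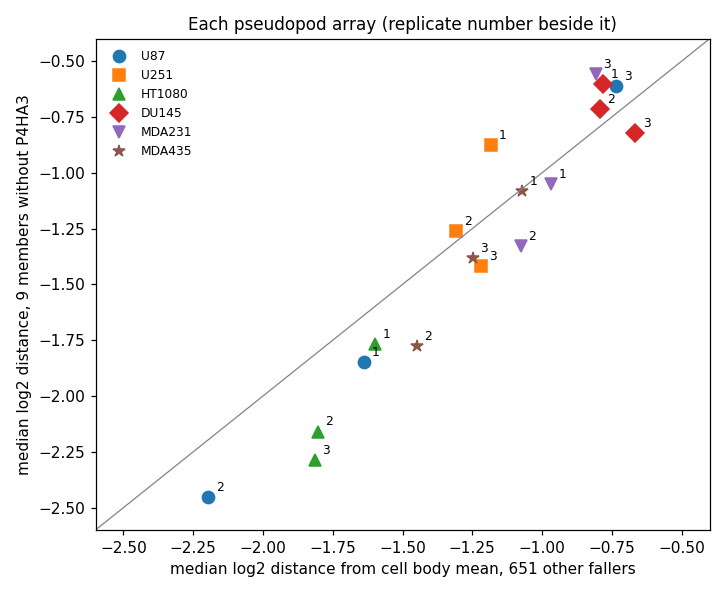
Each pseudopod array's median log2 distance from its line's cell body mean, for 651 other genes lower by at least 2-fold (x) and for 9 members (y, P4HA3 left out), with the replicate number beside each point and a line of equality. U87 replicate 3 lies at -0.73 and -0.61, beside the DU145 arrays, and U87 replicates 1 and 2 at -1.85 and -2.45 on the y axis.

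Array by array, the members lay near the other genes that were at least 2-fold lower. The other genes' distance in HT1080 arrays was -1.60 to -1.81 and the members' -1.77 to -2.29. In DU145 they were -0.67 to -0.79 and -0.60 to -0.82. The other genes were chosen for their fall on these same arrays, by a cut that most members also met. The nearness is therefore partly fixed by the choice. Arrays of a line share cell body means here, and the comparison is a description with no test.

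Where a gene had several probe sets, most told the same story in sign and some not in size. Of the 17 probe sets that passed the filter, 16 were lower in pseudopods (24.6% of all 34976 probe sets tested). The exception was that of P4HA3, and the other 3 (a second probe set of P4HA1, of P4HA2 and of P4HA3) never passed 17.4 intensity units. PLOD2 differed most: the brighter probe set changed by -0.78 and the dimmer by -1.56 ± 0.16, with -2.49 in HT1080 against -0.82. P4HA2 gave -1.62 and -1.25, and COLGALT1 -1.01 and -0.87. The 5 CRTAP probe sets ranged from -0.42 to -0.93, and none of them was called in HT1080, where 12.9% of all probe sets were lower (2 of the 5 had an unadjusted p under 0.05). Probe sets whose name marks them as shared between transcripts were the basis for SERPINH1, P4HA1, PLOD2, P3H1, CRTAP and COLGALT1. Without them 5 members remained testable, CRTAP through another of its probe sets, and 4 of those (P4HA2, PLOD1, PLOD3 and CRTAP) were lower. CRTAP then changed by -0.42 on average and was not called in MDA435 (-0.14, limma, adjusted p = 0.738).

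**Figure D4:**
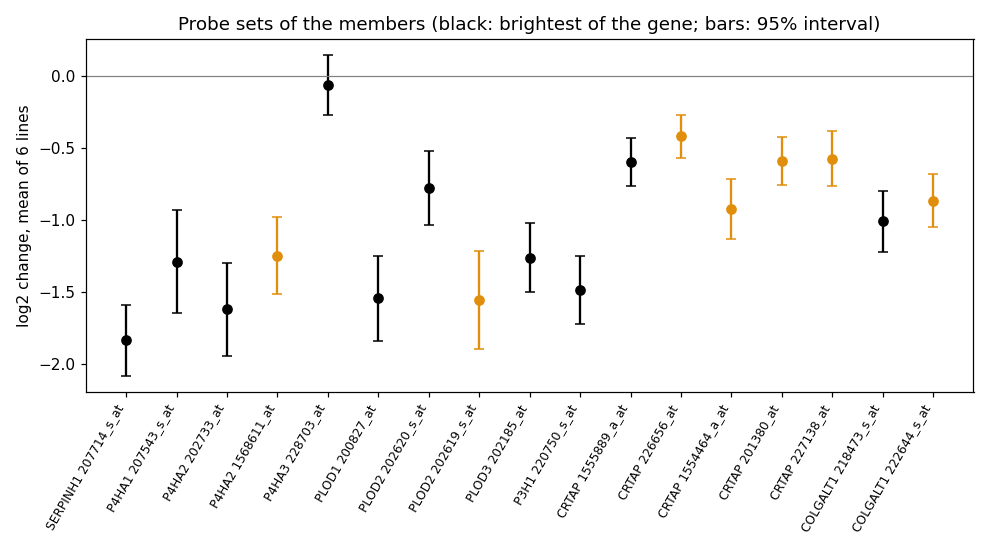
Averaged log2 change of the 17 probe sets that passed the filter, with 95% intervals, black for the brightest probe set of a gene and orange for the others. The intervals of both PLOD2 probe sets (-0.78 and -1.56) do not meet, and P4HA3 alone spans 0.

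Levels also differed between the cell bodies of the lines, and neighbours in the order mostly did not. For P4HA1 the order was U87, DU145, U251 and HT1080, from 2857 down to 2303, then MDA435 and MDA231 at 1290 ± 235 and 1146 ± 379 (SD, n = 3), with no neighbouring pair called. P4HA2 ran from 2954 ± 836 in U87 through HT1080, DU145, U251 and MDA231 to 559.4 ± 91.9 in MDA435, again with no neighbours called. PLOD3 had a clear top, MDA435 at 3065 ± 819 over HT1080 at 1434 ± 122 (limma, adjusted p = 0.00346), and no other neighbours were called. For PLOD1 the step lay between U87 at 547.9 ± 64.6 and DU145 at 284.9 ± 81.6 (adjusted p = 0.0322), below MDA435, U251 and HT1080 and above MDA231. P4HA3 had cell body means of 43.3 ± 16.9 in HT1080 and 40.2 ± 25.6 in DU145, and of 6.37 to 11.8 in the other 4 lines. It passed the filter of 24.4 units only through these 2 lines, so its differences between lines are given with no test. SERPINH1, PLOD2, P3H1, CRTAP and COLGALT1 had no called step between neighbours.

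Across the 15 pairs of lines, cell bodies against pseudopods, the called pairs were 4 and 4 for P4HA1, 8 and 6 for P4HA2 and 8 and 5 for PLOD1. They were 6 and 9 for PLOD2, 8 and 5 for PLOD3, 6 and 2 for P3H1, 7 and 5 for CRTAP and 6 and 8 for COLGALT1. The background shares were 40.4% and 39.3%. Pseudopod counts were lowest for SERPINH1 (0) and P3H1 (2) and highest for PLOD2 (9) and COLGALT1 (8). The difference between these counts was not tested.

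Likeness was measured as Pearson's r of log2 values over the 12 group means, which share each line's level and the fraction, and it is given as a description. SERPINH1 was most like TMEM39A (0.989), MFSD11 (0.974) and GPR107 (0.974), and among the members most like P3H1 (0.880). P4HA1 went with PLOD2 (0.902) and P4HA2 (0.893), and outside the members with UNC93B1, BTN3A2 and TMX2. PLOD3 went with COLGALT1 (0.798) and with SLC26A2, GNPTAB and CLCN6. For P4HA2 the nearest were ANKLE2, TXNDC15 and JKAMP, for PLOD1 TOR3A, TEX264 and CD276, and for PLOD2 CD99, SEL1L3 and PDIA3. For P3H1 they were CD58, SGCB and AKAP9, for CRTAP SLC41A3, COX17 and MFSD1, and for COLGALT1 TCTN3, PCYOX1 and PLBD2. P4HA3 was nearest to C6orf58, HMBOX1 and FCER1G, and its highest r with another member was 0.365, with CRTAP.

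Other genes of collagen biosynthesis were examined in fixed lists, also chosen with earlier results of these data known. Of 13 tested ER partners of the members, 11 were lower in pseudopods and 1 higher, with a median log2 change of -0.99. The largest falls were those of the prolyl 3-hydroxylase P3H2 (-1.47 ± 0.17), the peptidyl-prolyl isomerase FKBP14 (-1.21 ± 0.11), the collagen export receptor MIA3 (-1.20 ± 0.08) and P3H4, a partner of lysyl hydroxylation (-1.19 ± 0.11). P4HB, the shared partner subunit of the P4HA members, is named outside the rule for named genes. It averaged 1756 ± 571 in pseudopods and 3339 ± 712 in cell bodies (SD, n = 18 each). Its change was -0.97 ± 0.11 (SE, limma, adjusted p = 1.08e-08). SEC23A, a coat protein of ER export made in the cytosol, was higher, at 1962 ± 249 against 1762 ± 328 (0.17 ± 0.05, limma, adjusted p = 0.00776), a call that was lost with quantile normalization (0.10, adjusted p = 0.11). P3H2 could not be tested without shared probe sets. COLGALT2 and KDELR2 were not analysed here.

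Outside the cell, 9 of 11 tested genes for collagen processing and cross-linking were lower and 0 higher, also at an unadjusted p under 0.05 (median -0.87). LOXL2 (-1.52 ± 0.17) and LOX (-1.09 ± 0.15), which oxidise lysines for cross-links, PCOLCE2, an enhancer of procollagen cleavage (-1.51 ± 0.12), and LOXL3 (-1.02 ± 0.16) fell most. Of these, only LOXL3 could be tested without shared probe sets, and it was lower. Of 9 tested collagen chain genes 8 were lower and 0 higher, again also unadjusted (median -0.76), led by COL6A2 (-1.46 ± 0.21), COL6A1 (-1.37 ± 0.18), COL4A1 (-1.25 ± 0.22) and COL5A2 (-0.97 ± 0.16). Without shared probe sets COL6A1 was not lower (0.13, limma, adjusted p = 0.336) and COL6A2 fell by less (-0.57). COL1A1 was not called (0.06).

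Of 15 tested 2-oxoglutarate oxygenases of the cytosol and nucleus, which share the chemistry of the member hydroxylases, 7 were higher and 0 lower. Of all genes 29.7% were higher and 20.8% lower, and the list median was 0.16 against 0.05 over all genes. None in the list was lower at an unadjusted p under 0.05 either, and with array weights 1 was called lower. The list leaves out KDM3A, also a nuclear 2-oxoglutarate oxygenase, which was lower (-0.35 ± 0.08) and is counted among the HIF targets. Those higher included OGFOD1, a ribosomal prolyl hydroxylase (0.45 ± 0.06), and RIOX2, a ribosomal histidine hydroxylase (0.44 ± 0.06). The RNA demethylase FTO (0.33 ± 0.05) and HIF1AN, an asparagine hydroxylase of HIF (0.33 ± 0.06), were others. OGFOD1 averaged 669.8 ± 138 in pseudopods and 495 ± 145 in cell bodies (SD, n = 18 each).

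Of 17 tested HIF targets whose proteins are made in the cytosol, 5 were higher (29.7% of all genes) and 1 lower (20.8%), with a median of 0.10, and the share of higher genes was near that of all genes. The members known as HIF targets changed by -1.29 (P4HA1), -1.62 (P4HA2), -1.54 (PLOD1) and -0.78 (PLOD2). MXI1 (0.33 ± 0.12), the mitophagy receptor BNIP3L (0.28 ± 0.10), the glycolytic enzyme TPI1 (0.24 ± 0.07), and BNIP3 (0.19 ± 0.07) were higher, and the histone demethylase KDM3A was lower (-0.35 ± 0.08, limma, adjusted p = 0.000797). The number higher ranged from 1 to 9 over the settings tried, so the direction of this list is not settled.

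**Figure D5:**
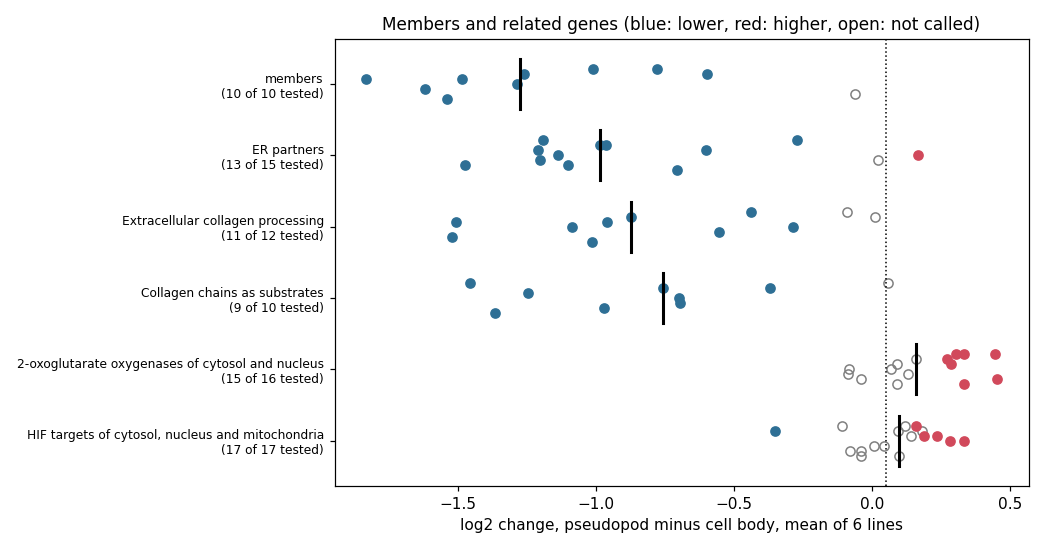
Averaged log2 change of each tested gene (circles, blue lower, red higher, open not called) for the members and 5 lists, with black bars at list medians and a dotted line at the median of all genes (0.05). Member, partner, processing and chain genes have medians from -1.28 to -0.76, and both lists of genes outside the ER lie near the dotted line.

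Markers of cell type were examined against the same background (20.8% of all genes lower and 29.7% higher). Of 6 mesenchymal markers 5 were lower in pseudopods, and VIM, the defining one, was not called (0.13). Their summed level was 8436 to 13385 in U87 pseudopods against 16376 to 22401 in cell bodies, and 3411 to 3769 against 3410 to 3798 in DU145. LOX, COL1A2 and COL6A3 are in this marker list and in the collagen lists. Of 6 epithelial markers 2 were higher and 0 lower (0 also at an unadjusted p under 0.05), a share of higher genes near the background, and of 6 glial and neural markers 4 were lower. Of 5 tested melanocytic markers 2 were lower. Summed epithelial markers were 120.3 to 164.2 in U87 cell bodies and 146.3 to 181.2 in its pseudopods, with CDH1 between 0.4 and 4.6. The part of these shifts in the members' changes was not tested.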

How the data were processed

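The deposited intensity values, 1 column per array, are linear and ran from 0 to 9883.2. RMA and Partek stand in the submitters' processing notes, with no role or version. The sources used here do not give the program that wrote the deposited values. Their mean after trimming 2% at each end was 149.1 to 149.6 in all 36 arrays. Since the intensities were linear, log2(intensity + 16) was computed. Symbols came from the platform annotation, updated through RefSeq gene numbers, and 41074 probe sets carry 1 symbol, 1798 several and 11721 none. The probe set with the highest mean log2 value stood for a gene. Of these, 15294 entered the test, those with a group mean of at least 24.4, the median intensity. limma (3.58.1, R 4.3.3) was fitted to all 36 arrays as 12 groups, which left 24 residual degrees of freedom, with Benjamini-Hochberg adjustment over all genes or probe sets. The code was checked on simulated data. No replicate block was used, since replicate numbers did not pair the samples. Alternatives were other pseudocounts (1, 64), scalings, filters (none, 100), probe set rules, array weights, arrays or lines left out, and lines as units. Named genes were the members, up to 4 called genes with the largest change in each list, called genes that moved against their list, and the 3 genes most like each member. Members and lists were chosen with earlier results of these data known. Protein sequences were not used here. Figures were drawn in Python 3.11.15.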

Additional observations from a re-analysis of the deposited data

How the results depend on the processing

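Averaged over lines, the 9 members called lower kept direction and call in all 36 fits without 1 array and under every other setting that tested them. P4HA3, not called on average under any setting, turned sign with equal array medians (0.033) and quantile normalization (0.012), in U251 with array weights (0.011), and without 1 array in U251 (-0.26 to 0.21) and U87 (-0.32 to 0.025). Counts within lines moved more. Members lower in DU145 were 2 with quantile normalization, the filter at 100, the mean of all probe sets, or the 2 MDA231 arrays left out, 7 with array weights, and 1 to 4 without 1 array. In MDA231 they were 2 with equal medians, 8 with array weights and 0 to 5 without 1 array (0 without cell body replicate 1). In U251 they were 4 to 8 and in MDA435 4 to 9 without 1 array (fewest without pseudopod replicate 2 in both), and 1 in MDA435 without its 4 arrays of high CDH1. Members that differ between lines were 9 with array weights and 0 to 2 without 1 array. Without shared probe sets, with 5 members testable, 4 were lower on average. By line, 4 were lower in U87, 4 in U251, 3 in HT1080, 0 in DU145, 2 in MDA231 and 3 in MDA435. In that setting 5 of 7 testable extracellular processing genes were lower. HIF targets higher were 9 with equal medians, 2 with quantile normalization, 8 with array weights, 3 without the MDA435 arrays, 1 over 4 lines, 2 over 3 lines (without U87, MDA231 and MDA435, chosen after seeing the data) and 2 to 6 without 1 array. Causes were not tested. Replicate numbers shared between fractions did not pair the samples: of 18 same-number pairs, 4 had a correlation of deviations over 0.1 (range -0.776 to 0.688). Pairs of unlike number reached 0.814 in MDA231 (pseudopod replicate 3, cell body replicate 2) and 0.794 in MDA435 (pseudopod replicate 3, cell body replicate 1). Other such pairs went down to -0.694. The main fit treats the arrays as independent, which these values do not establish. A fit with the replicate number as a block gave 9 members lower on average, 4 in U251, 2 in DU145, 2 in MDA231, and 1 HIF target higher. The share of called genes that were higher was 58.8% as deposited, 71.5% with equal medians and 65.0% with quantile normalization. With the mean of all probe sets P4HA1 changed by -0.69, because a probe set of at most 17.4 units enters that mean. P4HA3 near background and 3 arrays per group limit what could be seen.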
